A study of Saccharomyces cerevisiae with 14 samples.

Results

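Rad52 peaks were compared between budding yeast cells that lack RNase H while Sen1 is being depleted (h1D-h2D Sen1-AID) and cells in which Sen1 alone is being depleted (Sen1-AID). The members are the 4 peak lists of these 2 groups, 2 libraries each, out of 14 libraries in the series. Nuclear peaks of the 4 lists were merged wherever they overlapped by at least 1 bp, which gave 800 regions, and each region was described by the libraries with a peak in it, its width, its rank by score within a list and its place relative to genes. The labels give the strain background as 288C for all cells. Both groups carry Sen1 fused to an auxin-inducible degron and received 0.5 µM auxin for 4 h in rich medium, and the h1D-h2D Sen1-AID strain additionally lacks RNH1 and RNH201, which the series design names. WT and h1D-h2D cells, 2 libraries each with the same auxin exposure, are set beside them where RNase H loss with Sen1 present matters. The assay was chromatin immunoprecipitation and sequencing (ChIP-seq) with a Rad52 antibody. Sen1 protein was not measured in the files used here, so how far depletion went in each culture is unknown.

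RNase H digests the RNA strand of a DNA-RNA hybrid. Yeast has RNase H1, the product of RNH1, and RNase H2, whose catalytic subunit is the product of RNH201. Sen1 is a helicase that unwinds such hybrids and acts with Nrd1 and Nab3 to end transcription of small nucleolar RNAs (snoRNAs) and other short transcripts by RNA polymerase II. When nascent RNA pairs with the template behind a polymerase, an R-loop forms, and persistent R-loops are known to expose DNA to breakage. Rad52 binds single-stranded DNA and anneals complementary strands, so its binding is used as a mark of repair by homologous recombination.

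The libraries differed in ways that bear on every count below. Sen1-AID replicate 1 held 731 nuclear peaks over 1904 kb and replicate 2 held 454 over 763 kb. The h1D-h2D Sen1-AID libraries held 286 peaks over 791 kb and 305 over 799.5 kb. Peaks were fewer in both h1D-h2D Sen1-AID libraries than in either Sen1-AID library, whereas covered length overlapped between the groups. The difference in number was -297 (exact two-sided permutation test over the 6 splits, p = 0.333, the smallest p that 2 libraries against 2 can give). Median peak width was 2258 and 1375.5 bp in Sen1-AID and 2043 and 2061 bp in h1D-h2D Sen1-AID, so the Sen1-AID libraries spanned the other group. The length covered by Sen1-AID replicate 2 lay to 93.3% within that of replicate 1. The Jaccard index, the length under peaks of both libraries divided by that under peaks of either, was 0.364 between the Sen1-AID replicates, 0.608 between the h1D-h2D Sen1-AID replicates and 0.215 to 0.283 across the groups. Read depth is unknown. Nothing in the labels says that replicates were separate cultures, so p-values measure only the spread between these libraries.

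Loss of RNase H in Sen1-depleted cells went with a loss of many Rad52 peaks and the appearance of a smaller set, most of which lay over the 3′ end of a gene. Of the 800 regions, 188 had a peak in both Sen1-AID libraries and in neither h1D-h2D Sen1-AID library, 23.5% of all, and are called lost. Only 32 regions, 4% of all, showed the opposite, found in each h1D-h2D Sen1-AID library but in neither Sen1-AID library, and are called gained. A further 172 were common to all 4 libraries, and 251 were found in Sen1-AID replicate 1 alone. Most lost regions also had a peak where Sen1 was present, as did common regions. Of the 188 lost, 178 had a peak in both WT libraries and 173 in both h1D-h2D libraries. Of the 172 common, all 172 had a peak in both WT libraries and 166 in both h1D-h2D libraries. Among gained regions, 28 of 32 were free of peaks in all 4 WT and h1D-h2D libraries and none had a peak in both h1D-h2D libraries. Gained regions lack Sen1-AID peaks by definition, and Sen1-AID peaks largely coincide with WT peaks. Of the length covered in a Sen1-AID library, 60.7% to 90.4% lay under peaks of a WT library. The lost, gained and common counts depended on list length. With each list shortened to its 286 highest-scoring peaks, 56 regions were lost, 66 were gained and 109 were common. Without Sen1-AID replicate 1 the gained regions numbered 68, and without Sen1-AID replicate 2 the lost regions numbered 439.

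Score, the authors' value for each peak, was used only to order peaks within a list, where 100 marks the highest percentile. Loss was more frequent among low-scoring peaks. Of the 47 regions whose mean Sen1-AID percentile was up to 25, 76.6% were lost, against 58.8% of the 119 between 25 and 50 and 42.1% of the 133 between 50 and 75. In the top band, above 90, 11 of 51 regions were lost (21.6%) and 66.7% were common. High rank in Sen1-AID cells therefore did not guarantee that a peak was listed in h1D-h2D Sen1-AID cells.

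**Figure D1:**
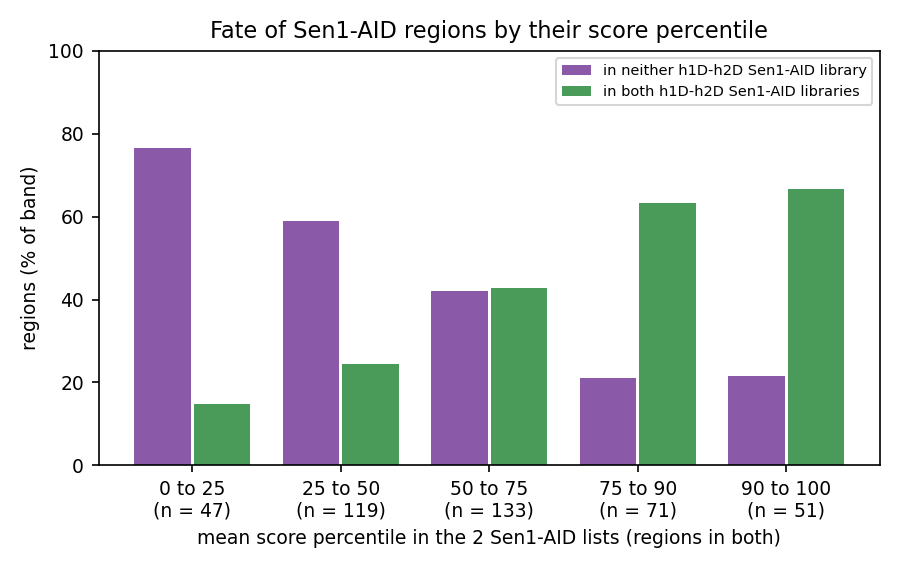
Bars give, for regions with a peak in both Sen1-AID libraries, the percentage found in neither (purple) or in both (green) h1D-h2D Sen1-AID libraries, by band of mean score percentile in Sen1-AID. The lost share falls from 76.6% in the lowest band to 21.6% in the highest, while the common share rises from 14.9% to 66.7%.

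The 12 highest-ranked lost regions lay at genes of protein synthesis, chaperones, central metabolism and RNA 3′-end processing. NRD1 (XIV 171870–175136, sacCer3) encodes the RNA-binding partner of Sen1 and limits its own expression through early termination. Its peak stood at percentile 99.7 and 95.8 in the Sen1-AID libraries, and neither h1D-h2D Sen1-AID library had a peak there. WT libraries placed it at 75.2 and 73.1 and h1D-h2D libraries at 82.2 and 63.7, so only the h1D-h2D Sen1-AID lists lacked it among these 8. RPL28 (VII 310286–312836), a protein of the large ribosomal subunit, was at 98.9 and 95.6 in Sen1-AID. YEF3 (XII 636340–640627), the fungal elongation factor 3, was at 98.8 and 93.4. HSC82 (XIII 631665–635223), an Hsp90 chaperone, was at 96.7 and 93.8. PDC1 (XII 229759–236254), the main pyruvate decarboxylase of fermentation, was at 88.7 and 98.5. The other 7 held SSA1 with EFB1, SSB1, GLY1, HYP2 with MCM3, FBA1, RPL9B, and RPS9A with RPL21B. All 12 had peaks in both WT and both h1D-h2D libraries. A peak did not usually reappear next to a lost gene: of 395 genes covered in both Sen1-AID libraries and in neither h1D-h2D Sen1-AID library, 361 had no peak within 2 kb on either side in both h1D-h2D Sen1-AID libraries.

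Most gained regions had a shared geometry, with a peak over the downstream part of a gene that ran past its 3′ end. In 30 gained regions the most covered gene was not on the list of Ty loci, though YER160C, a Ty reading frame that this list missed, is among them. That gene was covered at its 3′ end alone in 25 by the peak of h1D-h2D Sen1-AID replicate 1 and in 24 by that of replicate 2. The 5′ end alone was covered in 0 of them in either library. In 170 common regions, the same 2 libraries covered the 3′ end alone in 77 and 80 and the 5′ end alone in 24 and 28. In 182 lost regions, the Sen1-AID libraries covered the 3′ end alone in 39 and 57 and the 5′ end alone in 43 and 46. The most covered gene of gained regions had a median length of 3058.5 bp, against 1461 bp in common regions, 1252.5 bp in lost regions and 1191 bp over all coding genes. The next gene downstream faced it in 22 of 30 gained regions (73.3%). This convergent arrangement was found at 68.5% of common regions, 48.8% of lost regions and 52.0% of all coding genes. No test was made of these shares or lengths. The most covered gene is the one with the most bases under a peak, which can favour long genes where peaks are wide. Median width in the h1D-h2D Sen1-AID libraries was 3380 and 2777 bp in gained regions and 1988 and 2042 bp in common regions. Lost regions had 2103 and 1254 bp in the Sen1-AID libraries. The set of all coding genes was not chosen by overlap.

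Of the 12 highest-ranked gained regions, 11 are described gene by gene. SPT16 (VII 100369–103884) encodes a subunit of the histone chaperone FACT. Its peak was at percentile 83.9 and 77.7 in the h1D-h2D Sen1-AID libraries, began 1400 and 2256 bp into the gene, whose length is 3108 bp, and ended 1808 and 1722 bp past it, over the convergent clathrin heavy chain gene CHC1. CDC60 (XVI 249018–252370), the cytosolic leucyl-tRNA synthetase, was at 78.7 and 62.3, and its peak began 2083 and 2028 bp into the gene. RPN2 (IX 213381–219595), a proteasome base subunit, lay under a peak of 6215 and 6074 bp that also took in THS1, the threonyl-tRNA synthetase, at percentile 70.3 and 61.3. UTP10 (X 208205–213842), a ribosome assembly factor with a gene of 5310 bp, had a peak that started 3467 and 3776 bp into it and ran 3795 and 3662 bp past its end over CCT7, a chaperonin subunit. CHS3, a chitin synthase next to the uracil permease gene FUR4, PDR12, a weak-acid exporter, FPS1, a glycerol channel, and YGL176C followed the same form. None of these 8 regions had a peak in a WT, h1D-h2D or Sen1-AID library. The CDC60 gene itself was also overlapped, outside its gained region, by a Sen1-AID replicate 1 peak at percentile 2.74.

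The other 3 of the 11 departed from it. The FLO11 peak (IX 390943–392909), over a flocculin gene, lay inside the gene, starting 766 and 806 bp from its start and stopping 1371 and 1413 bp short of its end, at percentile 85.7 and 75.4. YER160C (V 491810–498550), a Ty retrotransposon reading frame that the list of Ty loci did not catch because it has no suffix, was covered from end to end at 98.6 and 98.4, and replicate 2 of WT and of h1D-h2D had a peak in its region. ACO1, the mitochondrial aconitase gene (XII 734490–738858), was also covered from end to end, at 93.0 and 89.5, and both WT libraries and h1D-h2D replicate 1 had a peak there. Ty copies are nearly identical, and how reads that map to several copies were treated is not given in the sources used here, so a peak at 1 copy is uncertain.

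**Figure D2:**
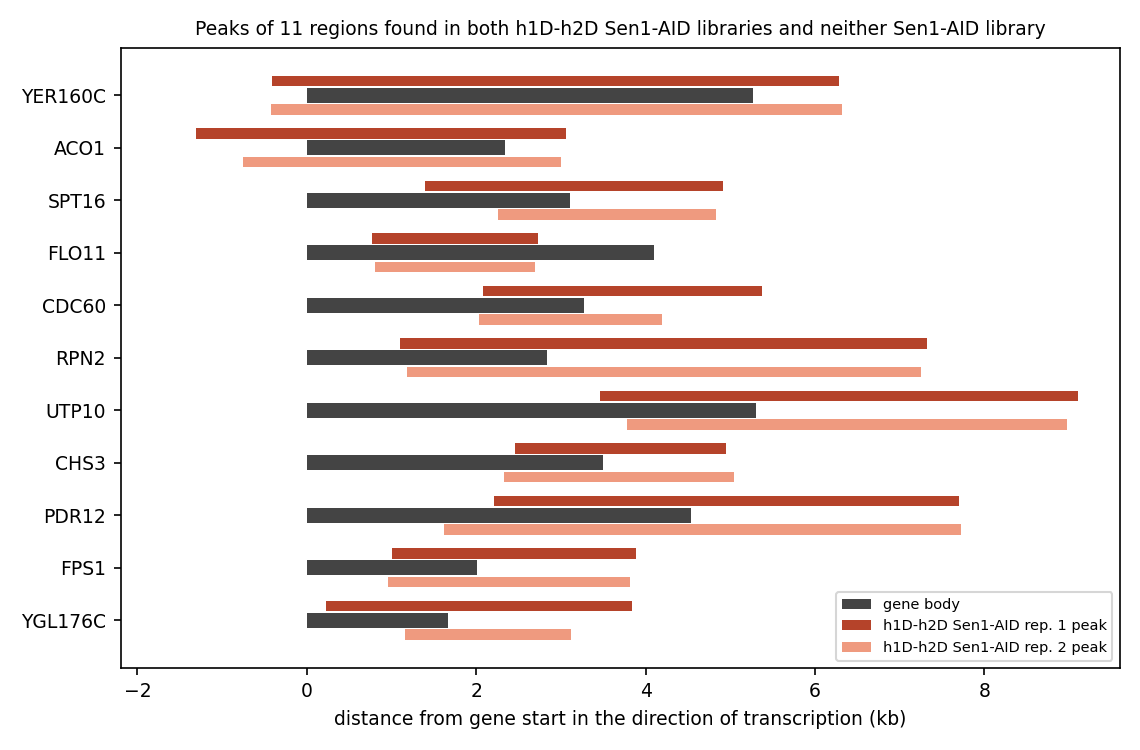
Each row is the most covered gene of 1 of 11 of the highest-ranked gained regions, drawn to scale as a dark bar from its start, with the peaks of the h1D-h2D Sen1-AID libraries above and below it (x axis in kb, direction of transcription to the right). In 8 rows the peaks begin inside the gene and run past its 3′ end; FLO11 is covered inside only, and YER160C and ACO1 from end to end.

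Counted over the genome, peaks of the h1D-h2D Sen1-AID libraries covered more coding gene 3′ ends than 5′ starts. Per start under a peak there were 1.76 and 1.52 ends in h1D-h2D Sen1-AID, against 1.05 and 1.17 in Sen1-AID. WT gave 1.05 and 1.06, and h1D-h2D gave 1.03 and 1.12. The h1D-h2D Sen1-AID values lay above those of the other 6 libraries, and these 2 lists were also the shortest, at 286 and 305 peaks. Sen1-AID replicate 2, the next shortest at 454, had the next highest value. A link of this ratio with list length was not tested, and no value at equal list length is given. The change in the ratio with RNase H loss was 0.0185 with Sen1 present and 0.529 under Sen1 depletion. The exact test of the difference over 36 arrangements gave p = 0.222. Gained regions alone had 2.88 and 3.13 ends per start, lost regions 0.947 and 1.05 in the Sen1-AID libraries, and common regions went from 1.14 and 1.41 in Sen1-AID to 1.49 and 1.43 in h1D-h2D Sen1-AID.

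The 206 long coding genes, of at least 4 kb and outside the Ty list, are given beside all 5968 coding genes. The start lay under a peak in 14.1% and 5.83% of them in Sen1-AID and in 2.43% and 3.40% in h1D-h2D Sen1-AID. The 3′ end lay under a peak in 16.0% and 6.31% in Sen1-AID and in 15.05% and 11.65% in h1D-h2D Sen1-AID. Over all coding genes, starts were covered in 18.5% and 7.12% in Sen1-AID and in 5.19% and 5.87% in h1D-h2D Sen1-AID, and ends in 19.4% and 8.33% and then in 9.12% and 8.91%. In both sets starts were lower without overlap, while ends overlapped between the groups. Long genes supplied 31 and 24 of the 544 and 532 ends under peaks in h1D-h2D Sen1-AID. Members covered anywhere numbered 55 and 24 in Sen1-AID and 35 and 28 in h1D-h2D Sen1-AID. Of the 149 without a peak in Sen1-AID, 12 were gained (8.05%), against 2.6% of all genes without one. A longer gene can be touched by a peak more readily, and these shares were not adjusted for length. The 12 include YER160C and YMR050C, Ty reading frames without the suffix that the Ty list uses. Besides those named, they also included the nucleoporin gene NUP170, the proteasome-associated ECM29 and the translational control gene GCN1. Of the 22 covered in both Sen1-AID libraries 15 were lost (68.2%), against 41.7% of all genes covered in both. Among the 15 were YML045W, another such Ty frame, and copies of YRF1, helicase genes of the subtelomeric Y′ repeats. The near-identical copies of YRF1 make their peaks uncertain.

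Protein synthesis genes were next examined list by list, counting members overlapped by a peak. As background, 395 of 947 genes covered in both Sen1-AID libraries were lost (41.7%), and 116 of 4466 covered in neither were gained (2.6%). Ribosomal protein genes under a peak numbered 132 and 97 of 138 in Sen1-AID and 58 and 58 in h1D-h2D Sen1-AID, with no overlap (exact two-sided permutation test, p = 0.333, the smallest possible). WT had 133 and 134, and h1D-h2D had 132 and 132. The list of 138 also took in RPP1, an RNase P subunit gene and not a ribosomal protein gene, which had no peak in any of these libraries. Of the 97 covered in both Sen1-AID libraries 36 were lost and 45 kept, a loss of 37.1% that is close to the background. tRNA genes under a peak numbered 230 and 222 of 275 in Sen1-AID against 101 and 122, again without overlap. Of the 203 tRNA genes covered in both Sen1-AID libraries, 88 were lost (43.3%). In lists shortened to 286 peaks the group difference was -18.5 ribosomal protein genes instead of -56.5, and -0.5 tRNA genes instead of -114.5.

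Translation elongation factor genes stood at 8 and 8 of 10 in Sen1-AID and 2 and 2 in h1D-h2D Sen1-AID. TEF1, which encodes eEF1A, remained at percentile 100 and 98.9 in Sen1-AID and 98.3 and 98.7 in h1D-h2D Sen1-AID. EFT1, one of the eEF2 genes, was at 61.7 and 25.3 and then at 90.6 and 86.6. The other 6, YEF3, HYP2, EFB1, TEF4, TEF2 and EFT2, had peaks in both Sen1-AID libraries and none in h1D-h2D Sen1-AID. TEF2 and EFT2 have the same product as TEF1 and EFT1, so reads from each pair can be shared. The difference was -6 in the full lists and -5 in shortened lists.

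Histone genes were covered in 8 and 7 of 10 cases in Sen1-AID and in 0 and 2 in h1D-h2D Sen1-AID. HHT1 and HHF1, for H3 and H4, shared a peak at percentile 88.8 and 68.1 in Sen1-AID, and HTA2 with HTB2, for H2A and H2B, at 77.7 and 70.7. Neither pair had a peak in h1D-h2D Sen1-AID, and HHT2 with HHF2 had 1 in replicate 2 alone, at 35.1. Hsp70, Hsp90 and Hsp104 chaperone genes stood at 8 and 8 of 14 and then at 3 and 5. SSA1, SSB1, SSB2 and HSC82 were lost, KAR2 of the endoplasmic reticulum was kept but at 23.6 and 10.8 instead of 84.1 and 68.9, and the heat-inducible SSA4 had a peak only in h1D-h2D Sen1-AID, at 66.4 and 79.0, from a peak shared with RPS8B. In shortened lists the differences were -6 histone genes instead of -6.5 and -3.5 chaperone genes instead of -4.

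snoRNA and spliceosomal snRNA genes under a peak numbered 79 and 73 of 82 in Sen1-AID and 45 and 49 in h1D-h2D Sen1-AID. The list includes Sen1 termination targets but also snoRNA genes that lie inside a coding gene, such as SNR38 in TEF4 and SNR39 in RPL7A. The kinds were not counted apart. Of the 72 covered in both Sen1-AID libraries, 40 were kept and 22 lost (30.6%). The difference was -29, and -17.5 in shortened lists. SNR37 and SNR63 were kept near the top of the lists, while SNR18, within EFB1, and SNR19, the U1 RNA, were lost. The Nrd1-Nab3-Sen1 factors and the genes they attenuate fell from 7 and 5 of 10 to 1 and 1. Each of the 4 covered in both Sen1-AID libraries was lost. These were NRD1, HRP1, which encodes an RNA-binding cleavage factor, and IMD2 and IMD3, which encode IMP dehydrogenase and of which IMD2 is regulated by early termination. IMD2 was at percentile 94.1 and 88.1 in Sen1-AID against 60.8 and 1.30 in WT, and IMD3 at 75.2 and 81.5 against no peak and 9.56. HRP1 was at 72.0 and 70.3 against 23.7 and 11.8 in WT. The IMD2 region itself was common, since both h1D-h2D Sen1-AID libraries had a narrower peak next to the gene, 1520 and 1113 bp wide instead of 4144 and 3665 bp.

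Glycolysis and fermentation genes kept most of their peaks. They numbered 16 and 12 of 21 in Sen1-AID and 11 and 10 in h1D-h2D Sen1-AID. ADH1, TDH3, ENO2, TPI1, CDC19, PGK1, TDH2 and GPM1 were kept, and PDC1, FBA1 and PGI1 were lost. With Sen1 present RNase H loss took the number from 14 and 14 to 15 and 15. The change was +1 with Sen1 present and -3.5 under Sen1 depletion, and the exact test of the difference gave p = 0.0556, the smallest that 36 arrangements allow. Shortened lists gave -2.

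In the remaining lists the counts are small. Aminoacyl-tRNA synthetase genes numbered 7 and 2 of 21 in Sen1-AID and 6 and 5 in h1D-h2D Sen1-AID. YHR020W, the prolyl-tRNA synthetase gene, went from 32.4 and 47.6 to 94.8 and 93.8, SES1, for seryl-tRNA synthetase, was kept at 72.1 and 89.0 and then 82.5 and 81.6, and THS1 was gained. Ribosome assembly genes stood at 4 and 2 of 15 and then 4 and 3, with UTP10 and NSR1 gained and UTP20 lost, and chaperonin genes of the CCT complex at 2 and 0 of 8 and then 2 and 1. Plasma membrane transporter genes numbered 12 and 7 of 28 and then 7 and 9, with FUR4, FPS1 and PDR12 gained and PDR5 and MEP1 lost. Cell wall genes went from 8 and 4 of 20 to 3 and 4, where CCW12, a mannoprotein gene, stood at 38.9 and 84.6 and then at 96.5 and 97.4. Ty loci numbered 16 and 15 of 34 and then 9 and 10, lower without overlap, but in shortened lists the difference of -6 turned to 6.5. Shortened lists also turned the transporter difference from -1.5 to 3.5. Of the 13 ribonucleotide reductase and recombination genes, RAD55 was overlapped in Sen1-AID replicate 1 and h1D-h2D Sen1-AID replicate 2 and no other member in any of the 4 libraries.

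Among the deleted or depleted genes, RNH1 had no peak in any of the 4 libraries and SEN1 had one in Sen1-AID replicate 1 alone, at percentile 75.2. RNH201 was overlapped in both h1D-h2D Sen1-AID libraries, at 99.7 and 99.0, by a peak of 3598 and 4135 bp that runs over RPL16B and LAT1. RNH201 is deleted in these cells, and how much of its sequence remains is not given in the sources used here. It had no peak in the WT libraries or in the h1D-h2D libraries, which carry the same deletion.

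**Figure D3:**
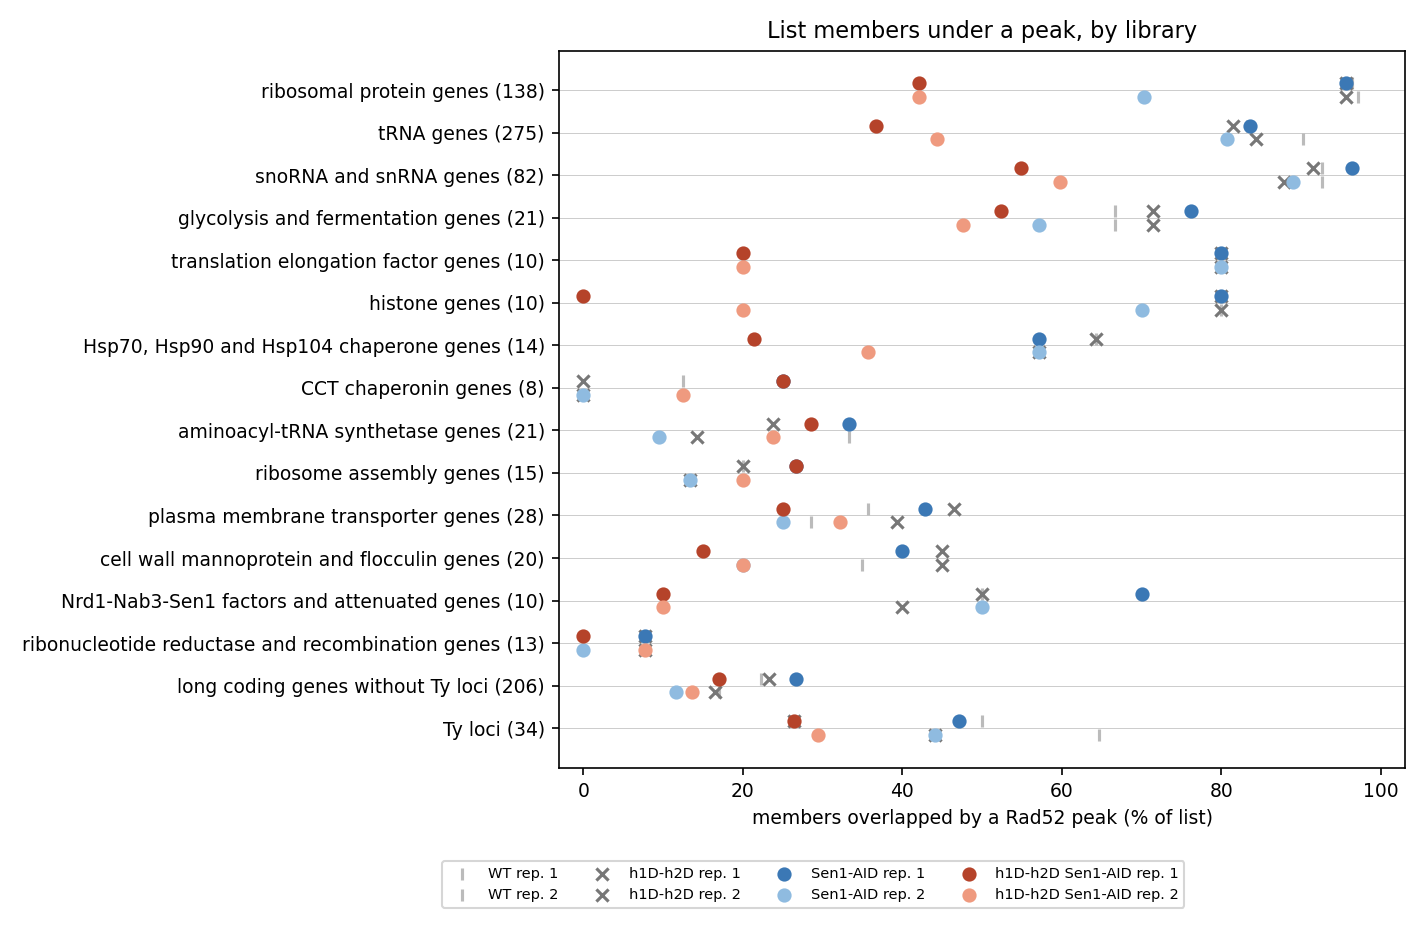
Points give the percentage of each gene list overlapped by a Rad52 peak, 1 point per library (list size in parentheses; replicate 1 above, replicate 2 below the line). Red points, h1D-h2D Sen1-AID, lie left of both blue points, Sen1-AID, for ribosomal protein, tRNA, snoRNA, glycolysis, elongation factor, histone, chaperone and Nrd1-Nab3-Sen1 genes and for Ty loci, and overlap them for transporter, synthetase, CCT and long genes.

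A minority of genes that kept a peak passed as moved, more of them downstream than upstream. Position was tested at the 388 genes, in 168 regions, that were overlapped by exactly 1 peak in each of the 4 libraries. The midpoint of the peak relative to that of the gene moved downstream at 56 genes (14.4%) and upstream at 34 (8.76%) by limma with Benjamini-Hochberg adjustment at 0.05, and 138 genes had an unadjusted p under 0.05. Neighbouring genes share peaks, and the 90 calls came from 39 regions. Of the 34 upstream calls, 29 shared a region with a downstream call on the opposite strand, so that the movement of 1 peak was counted in both directions. The calls rested on the close agreement of the h1D-h2D Sen1-AID libraries. Without replicate 1 of that group no gene passed, and without replicate 2 there were 11 downstream and 2 upstream calls, against 48 and 24 without Sen1-AID replicate 1 and 115 and 72 without Sen1-AID replicate 2. With 1 gene per region, 17 moved downstream and 6 upstream of 128 tested.

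Ribosomal protein genes moved downstream as a list. Over the 45 tested, the median midpoint lay at -32.5 and 196 bp from the gene midpoint in Sen1-AID and at 775 and 571 bp in h1D-h2D Sen1-AID. The groups did not overlap at 38 genes in the downstream direction and at 3 in the upstream direction, where over all 388 genes those shares were 42% and 31.2%. By limma 12 of the 45 moved downstream and 0 upstream, where over all 388 genes the shares called were 14.4% and 8.76%. The 12 were RPL32, RPS14A, RPS8B, RPL23B, RPS23A, RPL17B, RPL14A, RPS16A, RPL16B, RPL25, RPL3 and RPS7A. The median difference was 522 bp, against 52.2 bp over all genes tested, and it stayed between 404 and 670 bp with any 1 library left out. Both edges took part. The median upstream edge reached 868 and 248 bp beyond the gene start in Sen1-AID and -61 and -13 bp, inside the gene, in h1D-h2D Sen1-AID. The downstream edge reached 797 and 579 bp past the gene end and then 1447 and 1160 bp. With Sen1 present, RNase H loss left the median midpoint of these genes at -69 and -7 bp, where WT had -54 and -3.5 bp. The change of -9.25 bp with Sen1 present and of 591 bp under Sen1 depletion gave p = 0.111 in the exact test over 36 arrangements.

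Named ribosomal protein genes illustrate the size of the movement. RPL3 (XV 444049–449710) had its peak midpoint at 324.5 and 104.5 bp in Sen1-AID and at 1859.5 and 1792 bp in h1D-h2D Sen1-AID, a difference of 1611 bp (SE 104, limma adjusted p = 0.008). RPL14A had it at -823 and -915.5 bp and then at 1071.5 and 1051.5 bp (difference 1931 bp, SE 58.3, limma adjusted p = 0.00181), and the convergent BYE1 in the same region gave the mirror-image value of -1931 bp. RPS16A had the largest difference of all genes that passed, 3990 bp (limma adjusted p = 0.00945), from -885 and -1539.5 bp to 2833.5 and 2722 bp. Its region also holds RPL13B, and the Sen1-AID peaks there were 8949 and 2331 bp wide. RPL16B moved by 1217 bp (SE 202, limma adjusted p = 0.0446), and its region climbed from places 70 and 140 among the 172 common regions to places 2 and 4. That peak also runs over RNH201, which is deleted in the h1D-h2D strains. In the h1D-h2D libraries, which carry the same deletion, RNH201 had no peak and RPL16B was at percentile 94.95 and 83.74, where WT had 93.99 and 91.25. Whether the edit of the neighbouring gene has a part in the change at RPL16B was not tested.

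Glycolytic genes with a peak in every library showed the same direction. At all 8 tested, the h1D-h2D Sen1-AID midpoints lay downstream of the Sen1-AID ones without overlap, with a median difference of 1213 bp, and 3 of the 8 passed. Over all 388 genes, 42% lay downstream without overlap and 14.4% passed in that direction. PGK1, for phosphoglycerate kinase, moved from -35 and 82.5 bp to 1816 and 1768 bp (difference 1768 bp, SE 67.8, limma adjusted p = 0.00342). Its peak reached 845 and 759 bp past the gene end in Sen1-AID and 4370 bp in both h1D-h2D Sen1-AID libraries. TDH2, a glyceraldehyde-3-phosphate dehydrogenase gene, moved by 1859.5 bp (SE 193, limma adjusted p = 0.0209), and the enolase gene ENO2 by 1785 bp (SE 317, limma adjusted p = 0.0478). ADH1 and TPI1 shifted little, by 216 and 124 bp, with limma adjusted p of 0.337 and 0.18. SSC1, a mitochondrial Hsp70 gene, moved by 2292 bp (SE 105, limma adjusted p = 0.00441), and its peak extended 4219 and 3970 bp past the gene instead of 738 and 30 bp.

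Genes for short RNAs moved in both directions. Over all 388 genes tested, 14.4% moved downstream and 8.76% upstream. Of 40 snoRNA and snRNA genes tested 9 moved downstream and 3 upstream, with a median difference of -55.8 bp. The 9 lie in 3 regions, since the SNR72 cluster shares 1 peak, and the 3 upstream calls lie in 3. Their median downstream reach was 1828 and 1436 bp in Sen1-AID and 1332 and 1346 bp in h1D-h2D Sen1-AID. In WT and h1D-h2D cells, over the 39 with 1 peak in each of those libraries too, it was 1081 and 1044 bp and 1028 and 835 bp, so the Sen1-AID peaks already ran further past snoRNA genes than WT peaks. Individual loci gained still longer extensions. SNR10 moved by 1969 bp (SE 95.6, limma adjusted p = 0.00441), its peak reaching 5166 and 5645 bp past the gene instead of 1574 and 1253 bp. The SNR72 cluster moved by 2116 bp (SE 53.3, limma adjusted p = 0.00124), with a downstream reach of 4895 and 4835 bp instead of 794 and 657 bp. Of 78 tRNA genes tested 7 moved downstream, in 6 regions, and 4 upstream, in 4 regions, with a median difference of 34.6 bp. The median turned to -5 bp for tRNA genes without Sen1-AID replicate 2 and to 16.2 bp for snoRNA genes without h1D-h2D Sen1-AID replicate 2, so neither list had a settled direction.

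COG2 and the tRNA gene YNCP0007C completed the 6 largest downstream movements, with 3015 bp and 2028 bp (limma adjusted p = 0.00124 for both). The COG2 region also holds RPS23A, and COG2 is overlapped by a second, lost region. The 6 largest upstream movements were SEC59, MMS2, BYE1, MHO1, YHR173C and MBP1, at -2116, -1969, -1931, -1860, -1785 and -1678 bp. The first 5 lie opposite SNR72, SNR10, RPL14A, TDH2 and ENO2 in the same regions, and MBP1 lies opposite PSA1, which encodes the GDP-mannose enzyme of cell wall synthesis. Across the 388 genes, downstream reach was longer at 42 (10.8%) and shorter at 4 (1.03%), and upstream reach was longer at 20 (5.15%) and shorter at 7 (1.8%). Without Sen1-AID replicate 2 the shorter counts were 90 and 124, and without either h1D-h2D Sen1-AID library no upstream reach passed.

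**Figure D4:**
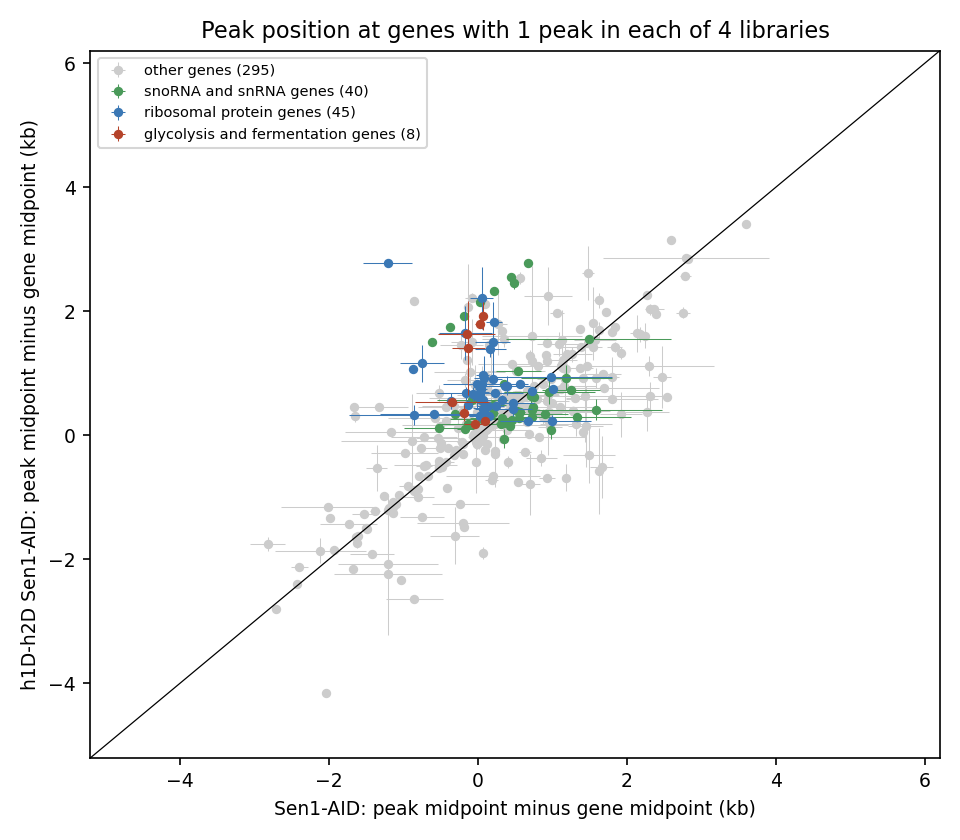
Each point is 1 of 388 genes, with the mean peak midpoint relative to the gene midpoint (kb, positive is downstream) in Sen1-AID on the x axis and in h1D-h2D Sen1-AID on the y axis. Bars span the replicates, the line marks equality, and genes on several lists take the colour of the list drawn last. All 8 glycolysis genes and most ribosomal protein genes (38 of 45 without overlap between groups) lie above the line, while snoRNA genes scatter on both sides.

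Coverage around the 3′ end was also counted over all members of a list, with or without a peak. At 1 kb upstream of the 3′ end, 90.6% and 35.5% of ribosomal protein genes were under a peak in Sen1-AID and 12.3% and 12.3% in h1D-h2D Sen1-AID. At 1 kb past the 3′ end the values were 31.2% and 13.8% against 29.0% and 29.7%. Coverage was thus lower without overlap on the upstream side and within the range of Sen1-AID on the downstream side. WT had 93.5% and 89.9% upstream and 28.3% and 22.5% downstream. For glycolysis genes, 1 kb past the 3′ end was covered in 19.0% and 9.52% in Sen1-AID and in 38.1% and 33.3% in h1D-h2D Sen1-AID, higher without overlap in a list of 21. For snoRNA and snRNA genes the same point was covered in 84.2% and 67.1% in Sen1-AID, 45.1% and 51.2% in h1D-h2D Sen1-AID, where WT had 42.7% and 36.6%. At tRNA 3′ ends coverage was 83.6% and 80.7% against 36.7% and 44.4%, and 1 kb past them 19.6% and 9.82% against 12.7% and 14.2%.

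**Figure D5:**
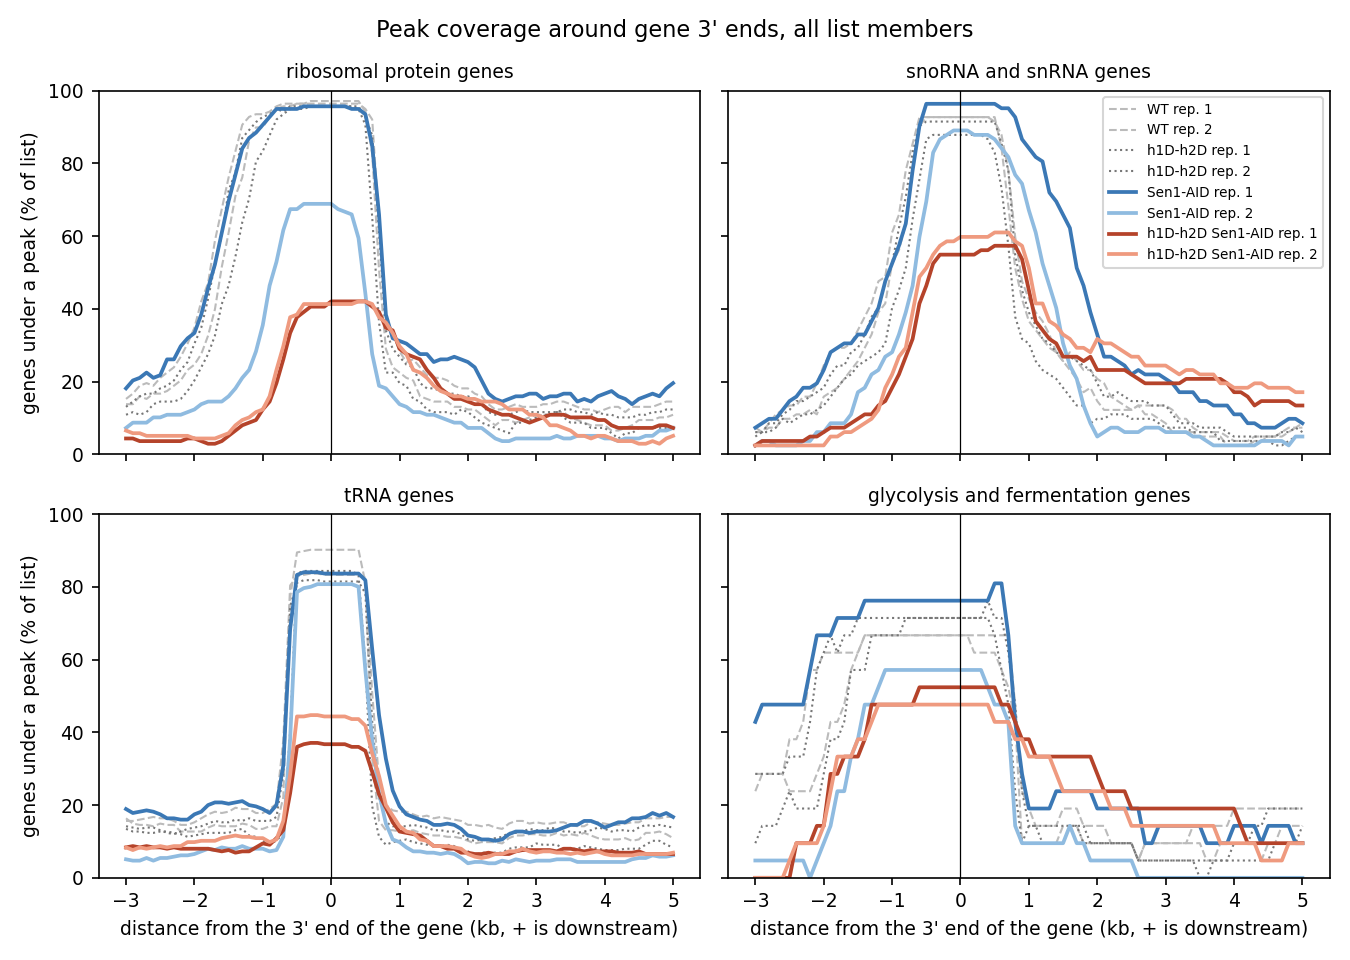
Lines give the percentage of all genes of a list under a peak at each distance from the gene 3′ end (kb, positive is downstream), 1 line per library. In the ribosomal protein panel the red lines, h1D-h2D Sen1-AID, are at 12.3% at 1 kb upstream, below both blue lines, Sen1-AID, and lie among them at 1 kb downstream; in the glycolysis panel the red lines lie above both blue lines at 1 and 2 kb downstream.

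Within the 172 common regions the order of scores differed between the groups. Ranks were recomputed over these regions alone, so that all 4 lists had the same length, and they are a description with no test. Spearman's rho over the 172 regions was 0.690 between the Sen1-AID libraries, 0.841 between the h1D-h2D Sen1-AID libraries and 0.321 to 0.420 across the groups. Rank groups did not overlap at 102 regions (59.3%), 51 of which rose and 51 fell. The top regions were shared. CUP1 with RSC30, a repeated metallothionein locus whose copies share reads, was at place 14 and 1 in Sen1-AID and 1 and 1 in h1D-h2D Sen1-AID, ADH1 at 2 and 4 and then 3 and 2, TEF1 at 1 and 5 and then 5 and 5, and RPL8A at 7 and 11 and then 7 and 9. TDH3, ENO2, SNR37, RPL3, RPL31A and TPI1 made up the rest of the 10 with the highest mean percentile.

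The largest rises were at Ty copies and at genes for translation. The YNL284C-B Ty region went from places 132 and 164 to 9 and 33 and the YLR227W-B Ty region from 52 and 165 to 15 and 6. The region of YHR020W and RPS27B went from 155 and 121 to 13 and 14, EFT1 from 127 and 149 to 22 and 31, RPL16B as given above, and the region of YNCO0012C with SGT2 from 133 and 128 to 24 and 37. These 6 rises and the 6 falls below were picked among regions whose groups did not overlap, so their separation was set by the choice. Of the 6 largest falls, 5 were at regions with a short RNA gene and 1 at IMD2. The SUP56 tRNA region went from places 15 and 12 to 163 and 122, the SUP7 tRNA region from 23 and 22 to 133 and 117, SNR10 from 18 and 36 to 86 and 151, SNR35 from 25 and 19 to 94 and 146, and RPL12A with SNR80 from 37 and 55 to 145 and 144. IMD2 went from 27 and 34 to 101 and 157. By list, the 34 regions with a snoRNA or snRNA gene had a median change of -20.2 places, with 17 falling and 6 rising without overlap. The 47 with a ribosomal protein gene had a median of 9.5 places, with 21 rising and 12 falling, and the 76 with a tRNA gene had -4.5 places, with 20 in each direction.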

How the data were processed

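The authors deposited 1 list of called Rad52 peaks per library, with positions and a score in the fifth column. Bowtie2, MACS2 and the sacCer3 build are named without versions in the submitters' processing notes. The control library, the peak threshold and the treatment of reads with several matches are not given in the sources used here. Chromatin was fixed and sonicated and libraries made with a single-stranded kit, per the labels' protocols.

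Gene positions came from RefSeq (assembly R64, 6431 nuclear genes), strand was read from the locus tag, and nuclear peaks were merged at 1 bp overlap in Python 3.11.15 (pandas 2.3.3, NumPy 2.4.6, SciPy 1.17.1). Score percentiles are within a list. For values per library, groups were set against each other by the exact two-sided permutation test. Peak midpoint, downstream and upstream reach were fitted with limma 3.58.1 in R 4.3.3 over 388 genes, with Benjamini-Hochberg adjustment at 0.05, and the fit was tested on simulated data. The members and gene lists were chosen with earlier results of these data known. The profiles around gene ends, starts and ends under peaks, nearby peaks of lost genes and leave-out medians were added after the data were seen.

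Named regions are the 12 lost and 12 gained with the highest mean percentile and the 10 top common ones. Also named are the 6 largest rises and falls in rank among common regions without overlap between groups. Named genes are the 6 largest passing position changes in each direction and up to 5 members per list. 1 gained region that the rule names is not reported here, and counts over all gained regions include it. Other names were chosen after their values were seen. Alternatives were a score limit at the pooled median of the 4 lists, equal list length, joining within 1 kb, a 25% overlap, leaving out Ty loci and the 20 kb at chromosome ends, leaving out each library, a replicate block and 1 gene per region. No reference genome was used, so no sequences are given.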

Additional observations from a re-analysis of the deposited data

Results flagged for a closer look

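The number of glycolysis and fermentation genes under a peak stood out because the test of the difference between RNase H loss with Sen1 present and under Sen1 depletion reached the smallest p it can give, although that p does not pass 0.05. The difference of the changes was -4.5 genes, from 14 and 14 (WT) to 15 and 15 (h1D-h2D) of 21 on one side and from 16 and 12 (Sen1-AID) to 11 and 10 (h1D-h2D Sen1-AID) on the other. The exact p of 0.0556 is the smallest that 36 arrangements allow and is not adjusted for the other quantities tested in the same way.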

How the results depend on the processing

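Of 267 alternative values of the main results, 208 held, 46 moved and 13 reversed. These counts do not measure robustness. Group differences judged by the exact two-sided permutation test could not give a p below 0.333 under any setting. They could therefore count as changed only if their sign turned. The tRNA gene difference of -114.5 shrank almost to nothing under equal list length but kept its sign. Of 305 values for single regions, genes and list medians, 261 held, 35 no longer passed, 7 moved and 2 reversed. The cause of these changes was not tested. A score limit at the pooled median left 71 lost, 8 gained and 48 common regions and turned the ribosome assembly difference to -1. Equal list length gave 56, 66 and 109, and turned the differences in covered length (75.2 kb), median width (-156 bp), transporter genes (3.5), long coding genes (12) and Ty loci (6.5). All 24 highest-ranked lost and gained regions kept their class under equal length, joining and every leave-out, while 6 changed at the score limit and 1 without Ty loci and chromosome ends. A leave-out could not change a class, since lost and gained already require agreement of every library. Equal length drops only the lowest-scoring peaks, and these regions were picked for high rank. Neither setting was therefore a test of these regions.

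With 1 library left out, lost regions ranged from 209 to 439 and gained from 36 to 68, covered length from -1109 to 32.0 kb, median width from -206 to 676.5 bp, CCT genes from -0.5 to 1.5, synthetase genes from -1.5 to 3.5, ribosome assembly genes from -0.5 to 1.5, transporter genes from -4 to 1 and long coding genes from -23.5 to 7.5. The median midpoint difference ran from -104 to 16.2 bp for snoRNA genes and from -5 to 57.6 bp for tRNA genes. Midpoint calls ranged from 0 to 115 downstream and 0 to 72 upstream, downstream reach from 33 to 67 longer and 1 to 90 shorter, and upstream reach from 0 to 28 longer and 0 to 124 shorter. With an arm of 1 library, that library was assumed to vary like the others.

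Midpoint calls downstream and upstream were 23 and 13 of 131 at the score limit, 26 and 11 of 395 after joining and 17 and 6 of 128 with 1 gene per region. Downstream reach was longer and shorter at 15 and 0 genes at the score limit and at 13 and 1 with 1 gene per region, longer at 26 under equal length and shorter at 2 after joining. Upstream reach was longer and shorter at 7 and 0 at the score limit and at 1 and 2 with 1 gene per region.

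The replicate numbers could not be shown to pair the samples. The correlation of replicate 1 minus replicate 2 between the groups was -0.0397 for midpoint, 0.0783 for downstream reach and 0.117 for upstream reach. With the replicate block, midpoint calls were 12 downstream and 2 upstream, downstream reach was longer at 17 and shorter at 1, and upstream reach changed at 0 in either direction. Peak number had an exact p of 0.5 within blocks, the smallest possible. Depth is unknown, so an unlisted peak is not shown to be absent.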
